A study of Mus musculus with 8 samples.

Results

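Glucuronidation was followed in kidney RNA through 10 mouse genes, picked by name with earlier results of these data known. They are 2 that supply the sugar donor (*Ugdh* and *Ugp2*) and 8 that encode UDP-glucuronosyltransferases, or UGTs (*Ugt2b34*, *Ugt2b35*, *Ugt2b36*, *Ugt2b5*, *Ugt2b37*, *Ugt2b38*, *Ugt1a6a* and *Ugt3a1*). A probe that the RefSeq accession of its transcript placed in the gene was found for 9 of the 10, and these 9 stood among 19593 genes and unnamed transcripts tested. *Ugt1a6a* was not measured by any probe named in this way and is not analysed here. RNA of 8 kidneys from mice aged 8 weeks was hybridised to 8 single-colour Agilent arrays. The 4 NEKO mice (Keap1-/-::Nrf2Flox/Flox::K5-Cre) lacked Keap1, the repressor of the transcription factor Nrf2, in the whole body. The 4 control mice were littermates with 1 intact *Keap1* allele, 1 of them K1 (Keap1+/-::Nrf2Flox/Flox, without Cre) and 3 K1Cre (Keap1+/-::Nrf2Flox/Flox::K5-Cre). All 8 mice carried the floxed *Nrf2* alleles on a mixed background with 129Sv/J and C57BL/6J contributions, and there were 2 females and 2 males in each group. K5-Cre is driven by the *Keratin5* promoter of squamous epithelium, so Nrf2 was removed there and not by design in renal tubules, and the controls are Keap1 heterozygotes rather than wild-type mice.

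Glucuronidation attaches glucuronic acid to drugs, steroids, bilirubin and other small lipophilic molecules, which makes them soluble enough to leave in urine or bile. UGP2 makes UDP-glucose from glucose-1-phosphate and UTP, UGDH oxidises it to UDP-glucuronic acid, and UGTs in the membrane of the endoplasmic reticulum transfer the glucuronic acid to the substrate. In the kidney, UGT activity is known mainly from the proximal tubule, and several genes for conjugating enzymes are among the known targets of Nrf2.

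The 10 genes lie on 4 chromosomes, and the 6 UGT2B genes are neighbours. In RefSeq (assembly GRCm38.p6) the UGT2 cluster on chromosome 5 holds 10 protein-coding genes, in the order *Ugt2b34*, *Ugt2b1*, *Ugt2b35*, *Ugt2b36*, *Ugt2b5*, *Ugt2b37*, *Ugt2a3*, *Ugt2b38*, *Ugt2a1* and *Ugt2a2*. Of the 6 UGT2B genes described here, *Ugt2b35* was the only one read from the plus strand. The promoters of 4 genes are printed below because their values carry the results: *Ugdh* and *Ugt2b35*, whose groups did not overlap, and *Ugt2b5* and *Ugt2b38*, which have near-identical promoters and unlike expression patterns. Each runs from 250 bases before the transcription start to 50 bases after it, 5′ to 3′, from RefSeq on GRCm38.p6. Capitals mark the core of the antioxidant response element, to which Nrf2 binds with small Maf proteins (TGACNNNGC, on either strand), in *Ugdh*, and a stretch shared by 4 UGT2B promoters in *Ugt2b5* and *Ugt2b38*.
Ugdh (chr5:65435793-65436092, minus strand): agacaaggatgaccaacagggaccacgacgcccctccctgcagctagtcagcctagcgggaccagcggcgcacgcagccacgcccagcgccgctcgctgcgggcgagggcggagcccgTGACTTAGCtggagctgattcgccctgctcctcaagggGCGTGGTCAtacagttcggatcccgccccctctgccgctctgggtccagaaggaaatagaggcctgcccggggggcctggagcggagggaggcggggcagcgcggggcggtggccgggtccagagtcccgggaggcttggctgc
Ugt2b35 (chr5:87000610-87000909, plus strand): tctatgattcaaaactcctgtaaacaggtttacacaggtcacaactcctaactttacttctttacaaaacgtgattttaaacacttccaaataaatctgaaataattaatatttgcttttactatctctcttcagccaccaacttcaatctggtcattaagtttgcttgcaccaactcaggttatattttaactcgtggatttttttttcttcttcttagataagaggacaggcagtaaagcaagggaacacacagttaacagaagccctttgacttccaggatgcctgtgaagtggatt
Ugt2b5 (chr5:87140291-87140590, minus strand): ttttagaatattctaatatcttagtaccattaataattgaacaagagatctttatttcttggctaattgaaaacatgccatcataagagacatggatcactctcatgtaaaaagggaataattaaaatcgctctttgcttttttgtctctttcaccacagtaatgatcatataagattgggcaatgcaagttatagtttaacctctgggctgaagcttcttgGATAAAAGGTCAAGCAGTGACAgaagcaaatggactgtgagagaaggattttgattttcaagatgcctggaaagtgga
Ugt2b38 (chr5:87424154-87424453, minus strand): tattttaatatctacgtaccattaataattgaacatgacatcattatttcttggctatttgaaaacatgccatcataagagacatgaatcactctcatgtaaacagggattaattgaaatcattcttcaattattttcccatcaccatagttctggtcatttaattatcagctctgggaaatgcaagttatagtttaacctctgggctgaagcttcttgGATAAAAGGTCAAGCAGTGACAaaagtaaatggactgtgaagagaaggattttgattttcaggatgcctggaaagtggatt

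The antioxidant response element core was found 2 times in the *Ugdh* window, starting 132 bases before the start site on the strand as printed and 94 bases before it on the opposite strand. The second overlaps a match to GCGTG, the core of the xenobiotic response element bound by the aryl hydrocarbon receptor. No window of the other 9 genes held the antioxidant core, and 12.4% of 32851 promoter windows of this length in RefSeq held at least 1. GCGTG on either strand was found 3 times in *Ugdh* and 5 times in 1 of the 2 *Ugp2* windows, and in none of the UGT windows, against 32.4% of all windows. GTTAAT, an HNF1 half-site searched on both strands, was found 1 time each in *Ugt1a6a* and *Ugt3a1*, against 7.1% of all windows. The promoters of *Ugt2b36*, *Ugt2b5*, *Ugt2b37* and *Ugt2b38* share the stretch GATAAAAGGTCAAGCAGTGACA, 22 bases long, whose first base lies 28 to 45 bases before the start site. It was in 4 of the 32851 windows, which are these 4 genes, and it was not in *Ugt2b34* or *Ugt2b35*, which keep at most 6 of its bases in a row. Over the aligned bases, *Ugt2b37* and *Ugt2b38* were 95.5% identical, and *Ugt2b5* was 89.5% and 90% identical to *Ugt2b37* and *Ugt2b38*. *Ugt2b35* was between 59.1% and 68.4% identical to the other 5, and *Ugt2b34* between 56.1% and 59.9%. A match says only that these letters are in the window.

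Each value is a log2 processed signal from which the same array's 75th percentile (over probes that are not controls) was subtracted, called the log2 level, so 0 is the 75th percentile and 1 unit is a doubling. Levels of different probes cannot be set against each other, so the genes are compared by detection and by their differences between groups. The share of probes well above background ran from 61.7% to 65.7% in controls and from 61.9% to 64.7% in NEKO mice, with none saturated. One slide carried the 4 females and the other the 4 males, and on each slide the controls took positions 1 and 2 and the NEKO mice positions 3 and 4, so sex cannot be told apart from slide, nor genotype from position. The deleted gene, *Keap1*, was lower in each of the 4 NEKO mice, at 0.06 to 0.45 against 1.77 to 1.92 in controls. Proximal tubule markers of the early segments were well above background on all 8 arrays (8 of 8 genes, none called), with a mean log2 level over the list of 5.34 to 5.49 in controls and 5.54 to 5.77 in NEKO mice. At an unadjusted limma p under 0.05, 3 of the 8 were higher and 1 lower, against 7.37% and 10.6% of all features. *Slc13a3* (log2 change 0.97) and *Slc22a8* (0.82) lay higher in all 4 NEKO mice, and *Slc5a2* (-0.43) lower in all 4. Of 7 tested Nrf2 target genes, 1 was called higher, against 0.0970% of all features, and 6 were higher at an unadjusted limma p under 0.05, against 7.37%. The remaining gene, *Hmox1*, changed by -0.08 on the log2 scale (adjusted p = 0.82 from limma). In whole-kidney RNA a change in the number of cells of a type cannot be told apart from a change in RNA per cell.

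*Ugt2b35* was well above background in NEKO kidneys alone, and the other 5 UGT2B genes, *Ugt3a1* and both supply genes were expressed in kidneys of either genotype. Of the 9 genes tested, 8 were well above background on all 8 arrays, and *Ugt2b35* on all 4 NEKO arrays and no control array. Called at an adjusted p under 0.05 from limma with a term for sex, 1 of the 9 was higher in NEKO mice (*Ugt2b35*, which entered the test only through the arrays where it was high) and 0 were lower, against 0.0970% and 0.128% of all features tested. At an unadjusted p under 0.05 the counts were 4 higher and 0 lower, against 7.37% and 10.6% of all features. In 3 of the 9 the 4 NEKO mice all lay above the 4 controls, against 3.88% of all features, and in 0 they all lay below, against 5.39%. *Ugt2b35* is in both counts of higher genes, where it adds no evidence because it entered only through its NEKO arrays. The median log2 change over the 9 genes was 0.21, and -0.03 over all features.

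**Figure D1:**
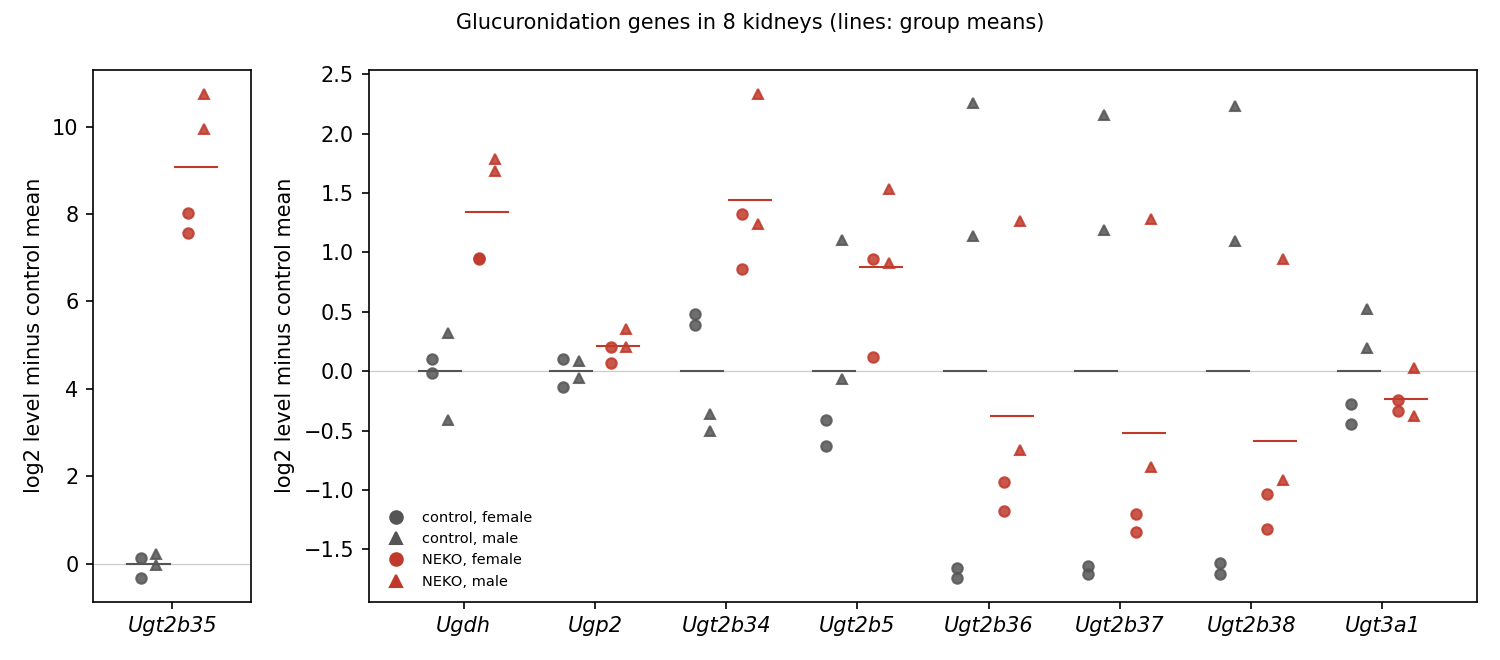
Log2 level of each mouse minus the mean of the 4 control mice (y axis) for the 9 genes measured (x axis), with controls in grey, NEKO mice in red, females as circles and males as triangles; horizontal lines are group means, and *Ugt2b35* has its own axis. All 4 NEKO mice lie above all 4 controls for *Ugt2b35*, *Ugdh* and *Ugt2b34*, and the groups overlap for the other 6; the *Ugt2b35* readings of controls are at background.

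UGDH makes the UDP-glucuronic acid that glucuronidating UGTs consume, and its transcript was higher in every NEKO mouse. The log2 level of *Ugdh* was 3.53, 3.14, 3.87 and 3.65 in control replicates 1, 4, 7 and 8, and 4.50, 4.49, 5.34 and 5.23 in NEKO replicates 2, 3, 5 and 6. The highest control, a male, lay below the lowest NEKO mouse, and the 2 NEKO males lay above the 2 NEKO females. The log2 change was 1.34 (standard error 0.22, 95% interval 0.81 to 1.88), or 2.54-fold, from 3.55 ± 0.31 (SD, n = 4) to 4.89 ± 0.46 (SD, n = 4). By the exact permutation test of 4 mice against 4, which does not keep to sex or slide, the two-sided p was 0.0286. This is the smallest value that test can give. The adjusted p of limma over all features was 0.067, above the 0.05 at which a gene was called. It was 0.042 under normexp background correction and 0.018 where an interaction was fitted and the effect averaged over females and males, and leaving out single mice gave 0.081 to 0.18. Without the filter on dim probes it was 0.12, and the adjusted p of the unequal-variance comparison that the methods name was 0.31. In 19 of 22 alternatives *Ugdh* stayed uncalled.

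UGP2 makes the UDP-glucose that UGDH oxidises, and *Ugp2* differed little between the groups. Its log2 level was 2.90, 2.88, 2.74 and 2.66 in control replicates 1, 4, 7 and 8 and 2.87, 3.00, 3.00 and 3.15 in NEKO replicates 2, 3, 5 and 6. The groups overlapped, since NEKO replicate 2 lay below control replicates 1 and 4. The log2 change was 0.21 (standard error 0.09, 95% interval -0.0039 to 0.42, adjusted p = 0.28 from limma), and a second probe of the gene also gave 0.21. *Ugdh* changed by 1.14 more than *Ugp2* on the log2 scale (standard error 0.28, two-sided exact permutation test, unadjusted p = 0.0286). For this the difference of the 2 log2 levels was taken within each array and compared between the groups. With each mouse left out in turn this difference stayed between 0.97 and 1.27.

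*Ugt2b35*, one of the UGT2B enzymes that conjugate steroids and xenobiotics, was measured above background in NEKO mice and in no control. Its log2 level was 0.13 and 0.58 in the NEKO females (replicates 2 and 3) and 2.49 and 3.31 in the NEKO males (replicates 5 and 6). In control replicates 1, 4, 7 and 8 the probe read -7.31, -7.23, -7.47 and -7.77, not well above background on any of these arrays. The control values therefore give only a bound, which depends on the floor taken. Each control array was taken at the higher of its own signal and the lowest signal among its probes well above background. Over that floor the NEKO mean was 134-fold higher. A probe above the floor is not always well above background, so a stricter floor would give a smaller bound. The same bound was 60.6-fold within the females and 294-fold within the males. The adjusted p was 0.0031 from limma, whose fit takes the control readings at background as they stand, and the probe entered the test only through the 4 NEKO arrays. The log2 change so fitted was 9.07, and 5.56 under normexp background correction, which lifts dim signals, so neither is an estimate of size. The second is below the bound of 7.06 on the log2 scale, so the bound holds for the processed signal only. With the unequal-variance comparison that the methods name for the study, *Ugt2b35* had an adjusted p of 0.25.

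*Ugt2b34*, the neighbour of the untested *Ugt2b1* at the end of the cluster, was the other UGT2B gene with separated groups. Its log2 level was 0.34, -0.50, -0.65 and 0.24 in control replicates 1, 4, 7 and 8 and 0.71, 1.18, 1.09 and 2.19 in NEKO replicates 2, 3, 5 and 6. The controls fell into lower males and higher females, and the smallest gap between the groups was within the females. The log2 change was 1.44 (standard error 0.38, 95% interval 0.55 to 2.33), or 2.71-fold, and the gene was not called (adjusted p = 0.15 from limma). The two-sided exact permutation p was 0.0286. Within the females the change was 0.66 and within the males 2.22, with 2 mice against 2 in each.

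*Ugt2b5*, which encodes another steroid- and drug-conjugating UGT2B enzyme, overlapped between the groups. It read -3.51, -1.99, -3.17 and -3.73 on the log2 level scale in control replicates 1, 4, 7 and 8, and -2.98, -2.16, -2.19 and -1.57 in NEKO replicates 2, 3, 5 and 6. Control replicate 4, a male, lay above 3 of the 4 NEKO mice, and the other 3 controls lay below all 4. The log2 change was 0.88 (standard error 0.31, 95% interval 0.14 to 1.61, adjusted p = 0.22 from limma), with changes of 1.05 in females and 0.70 in males.

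**Figure D2:**
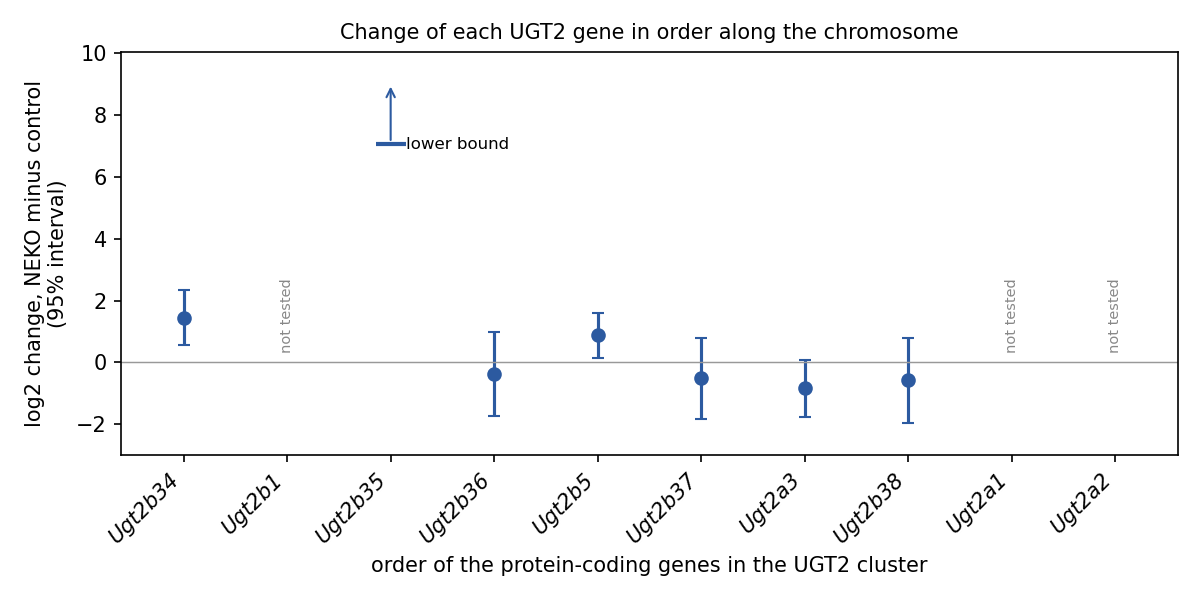
Log2 change from control to NEKO kidneys (y axis; points are limma estimates, bars their 95% intervals, and the dash with an arrow a lower bound) for the 10 protein-coding genes of the UGT2 cluster in chromosomal order (x axis, no distances). *Ugt2b35* is shown only by its bound of 7.06, the other 6 genes tested lie between -0.84 and 1.44, and *Ugt2b1* beside it, *Ugt2a1* and *Ugt2a2* were not tested.

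*Ugt2b36*, *Ugt2b37* and *Ugt2b38* separated by sex in the controls and not by genotype. The log2 level of *Ugt2b38* was 2.48 and 2.39 in the control females (replicates 1 and 8) and 6.33 and 5.19 in the control males (replicates 4 and 7). In NEKO mice it was 2.76 and 3.06 in the females (replicates 2 and 3) and 5.04 and 3.18 in the males (replicates 5 and 6). The NEKO females thus lay above the control females and the NEKO males below the control males, and NEKO replicate 6, a male, lay close to the females. *Ugt2b36* went from 0.65 and 0.74 to 1.21 and 1.45 in females, and from 4.65 and 3.53 to 3.65 and 1.73 in males. *Ugt2b37* went from 1.74 and 1.67 to 2.03 and 2.18 in females, and from 5.55 and 4.58 to 4.66 and 2.58 in males. For these 2 genes NEKO replicate 5 lay just above control replicate 7, so the males of the genotypes overlapped.

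On the log2 scale, control males exceeded control females by 3.39 for *Ugt2b36*, 3.35 for *Ugt2b37* and 3.32 for *Ugt2b38*, and NEKO males exceeded NEKO females by 1.36, 1.52 and 1.20. These differences rest on 2 mice against 2 and cannot be told apart from the slide. Over both sexes the log2 changes with genotype were -0.38 (95% interval -1.74 to 0.98), -0.52 (-1.84 to 0.80) and -0.58 (-1.95 to 0.79), none called (adjusted p from limma 0.75, 0.64 and 0.61). Their signs rest on single mice: without NEKO replicate 6 they were 0.21, 0.08 and 0.000285, and without control replicate 4 that of *Ugt2b36* was 0.05. The changes within females were 0.64, 0.40 and 0.48 and within males -1.40, -1.44 and -1.65. The interaction of sex and genotype did not pass for any of the 3 (adjusted p = 0.52, 0.58 and 0.48 from limma).

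*Ugt3a1*, a UGT whose known sugar donor is UDP-N-acetylglucosamine rather than UDP-glucuronic acid, also had its highest levels in the control males. Its log2 level was 5.44 and 5.28 in the control females (replicates 1 and 8), 6.25 and 5.92 in the control males (replicates 4 and 7), 5.47 and 5.39 in the NEKO females (replicates 2 and 3) and 5.75 and 5.34 in the NEKO males (replicates 5 and 6). The 2 control males lay above the other 6 mice, and NEKO replicate 6, a male, lay among the females. The log2 change with genotype was -0.23 (standard error 0.17, 95% interval -0.62 to 0.16, adjusted p = 0.48 from limma), with 0.07 in females and -0.54 in males.

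**Figure D3:**
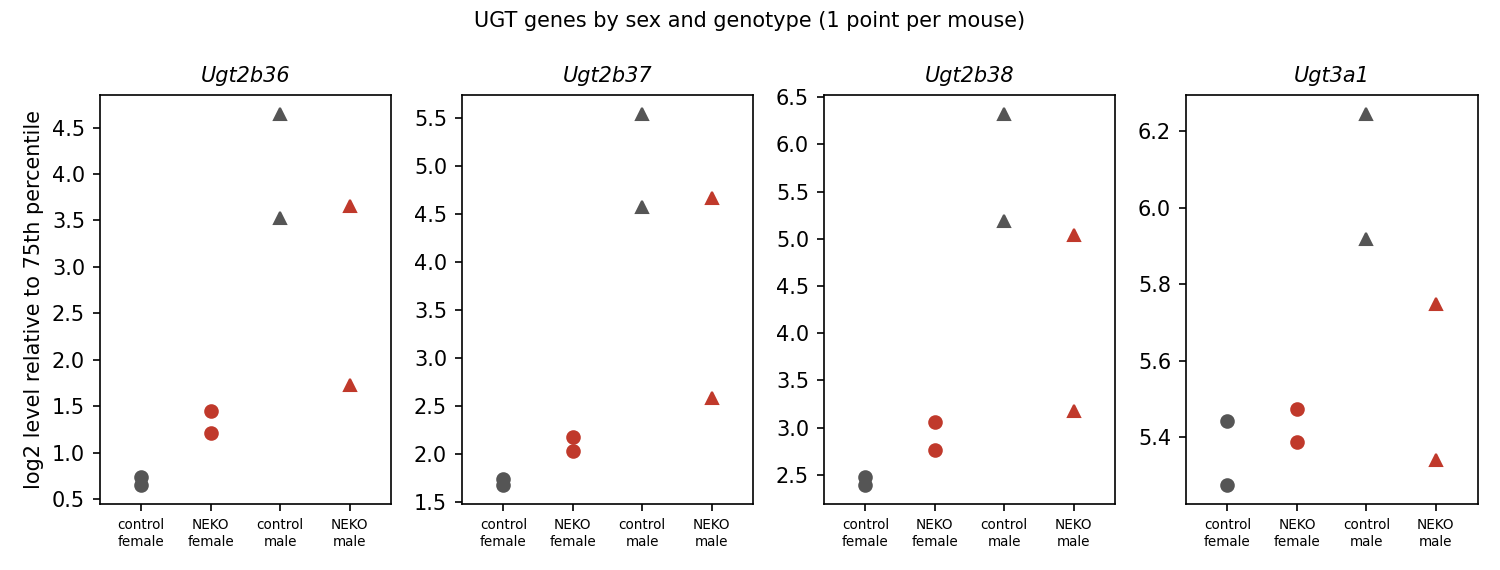
Log2 level, scaled to the 75th percentile of each array (y axis, a separate range for each gene) for *Ugt2b36*, *Ugt2b37*, *Ugt2b38* and *Ugt3a1*, by sex and genotype (x axis), with 1 point per mouse. For *Ugt2b38* the control males are at 5.19 and 6.33, the females of that group at 2.39 and 2.48 and the NEKO males at 3.18 and 5.04, and for *Ugt2b36* and *Ugt2b37* NEKO replicate 5 lies just above control replicate 7.

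Markers of the last segment of the proximal tubule were measured alongside these genes. None of the 7 such genes was called, and the mean log2 level over the list was 1.93 to 4.23 in controls and 2.15 to 3.07 in NEKO mice. On the log2 scale control males exceeded control females by 5.10 for *Cyp7b1*, 4.08 for *Slc7a13*, 2.99 for *Slc22a7*, 1.02 for *Acox3* and 0.49 for *Slco1a6*, and differed by -0.08 for *Slc22a13* and -0.42 for *Slc5a1*. Within males the difference between NEKO and control mice was -5.93 for *Slc22a7*, -2.10 for *Cyp7b1*, -0.88 for *Slc7a13*, -0.50 for *Acox3*, -0.41 for *Slc22a13* and 0.38 for *Slco1a6*, and that of *Slc5a1* was near 0. Within females this difference was -2.05 for *Slc7a13* and 1.32 for *Cyp7b1*. The other markers of the list lay between 0.14 (*Slc5a1*) and 1.56 (*Slc22a7*) within females. The part of these cells in the UGT values was not tested. Of 4 hepatocyte markers 2 were tested, neither was called, and their mean log2 level overlapped between controls (-1.44 to -0.28) and NEKO mice (-0.66 to 0.21). Urothelial markers, of which none of 5 was called, had a median log2 change of 1.29 and a mean log2 level of -2.50 to -1.10 in controls and -1.35 to -0.08 in NEKO mice. *Krt5* lay higher in all 4 NEKO mice (1.85) and *Upk1a* lower in all 4 (-0.71). The change of each of the 5 was higher in males than in females, as for *Ugdh* and *Ugt2b34*. The same held for each of the 7 tested Nrf2 target genes, so this pattern was not particular to urothelial markers. Intercalated cell markers, of which none of 4 was called, had a median of -0.77, with *Slc26a4* lower in all 4 NEKO mice (-2.07), and a mean log2 level of 1.14 to 1.64 in controls and -0.63 to 1.11 in NEKO mice. The part of either cell type in the values of the glucuronidation genes was not tested.

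Over the 9 genes, the change with genotype did not differ between the sexes for any at an adjusted p under 0.05 from limma, against 0.0153% of all features. At an unadjusted p under 0.05 there were 3 of 9, against 10.5% of all features. These were *Ugt2b35*, *Ugt2b34* and *Ugdh*, and the changes of the last 2 in males exceeded those in females by 1.56 and 0.88 on the log2 scale (adjusted p = 0.33 and 0.42 from limma). For *Ugt2b35* no size is given, since the controls of both sexes were at background, and its place among the 3 rests in part on those readings.

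The changes of the paralogs are set side by side here without a test, since the probe of *Ugt2b35* entered only through its NEKO arrays. The bound on *Ugt2b35*, 7.06 on the log2 scale, lies above the upper limit of the 95% interval of each of the 6 other UGT genes among the 9. These limits run from 0.16 for *Ugt3a1* to 2.33 for *Ugt2b34*. Of the UGT genes in the pathway list below, *Ugt1a1* had an upper limit of 3.66 and *Ugt1a9* of 5.38. The bound depends on the floor and the background correction, since under normexp the fitted change of *Ugt2b35* was 5.56, below it. No test of the difference is given because the control level of *Ugt2b35* was not measured.

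After the mean of each sex was removed, *Ugt2b36*, *Ugt2b37* and *Ugt2b38* followed each other over the 8 mice with Pearson's r of 0.99 in each pair, and *Ugt3a1* followed them with r of 0.92 to 0.95. *Ugt2b5* did not follow the 3, with r of -0.16 to -0.04, although its promoter is 90% identical to that of *Ugt2b38*. *Ugdh* and *Ugt2b34* followed each other with r of 0.87. The points of each correlation share the 8 arrays and any difference between the genotypes, and *Ugt2b35* is left out because its controls were at background. The array files used here do not give the probe sequences, so how far the probes tell near-identical paralogs apart was not tested.

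Among 13518 other named genes, the 5 whose pattern over the 8 mice was most like that of *Ugdh*, once the mean of each sex was removed, were *Csgalnact2*, *Nrcam*, *Sema6d*, *Nudt11* and *Epas1*, with Pearson's r of 0.992 to 0.995 and log2 changes of 0.34 to 1.12, none called. CSGALNACT2 acts in the synthesis of chondroitin sulfate, which contains glucuronic acid. The points share the 8 arrays and the difference between genotypes, and the part of either in r was not tested.

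Other genes of the pathway were read from a list of 43, of which 29 were tested, 10 had no probe named through RefSeq and 4 had probes too dim to keep. None was called in either direction. At an unadjusted p under 0.05 from limma 7 were higher and 1 lower, against 7.37% and 10.6% of all features, and the median log2 change was 0.13. Every NEKO mouse lay above every control for 3 of the 29 (*Ahr*, *Abcc3* and *Abcc4*) and below for 1 (*Galk1*), against 3.88% and 5.39% of all features.

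Of the other UGT genes 6 of 14 were tested and 1, *Ugt1a1*, the bilirubin-conjugating enzyme, had an unadjusted p under 0.05. *Ugt1a1* read -1.63 and -2.51 in the control females and -7.30 and -5.03 in the control males, and -1.57 and -0.81 in the NEKO females and -4.05 and -2.21 in the NEKO males. It was well above background on 3 of the 4 control arrays and all 4 NEKO arrays, the groups overlapped, and its log2 change was 1.96 (adjusted p = 0.23 from limma, standard error 0.72). The change was 1.29 without control replicate 4, the lowest mouse, and 0.95 under normexp background correction. The probe listed for *Ugt1a6b*, the near-identical partner of *Ugt1a6a*, changed by 0.51 (95% interval -0.08 to 1.10, adjusted p = 0.33 from limma), from 7.88 and 7.39 in control females and 6.53 and 6.74 in control males to 7.55 to 7.79 in the 4 NEKO mice. UGT1A transcripts share their last exons, so which of them this probe reads was not tested. *Ugt3a2* changed by -0.02 (95% interval -0.29 to 0.25), and *Ugt2a3*, inside the UGT2 cluster, by -0.84 (adjusted p = 0.31 from limma).

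In the supply of UDP-sugars, *Pgm1*, which forms the glucose-1-phosphate that UGP2 uses, changed by 0.40 on the log2 scale without being called (adjusted p = 0.10 from limma, standard error 0.08). The change of *Slc35d1*, a carrier of UDP-glucuronic acid into the endoplasmic reticulum, was 0.41 (95% interval -0.03 to 0.85), and that of *Galk1*, the galactokinase, was -0.20. Of the 5 tested genes for the steps of free glucuronate and ascorbate, *Rgn*, a lactonase of ascorbate synthesis, was at 0.60 (adjusted p = 0.17 from limma) and the other 4 lay between -0.09 and 0.14. *Gusb*, the beta-glucuronidase that splits glucuronides, was at -0.22 (95% interval -0.55 to 0.11). Among 5 tested regulators of UGT genes, *Ahr* had a log2 change of 0.37 (adjusted p = 0.16 from limma) and the other 4 lay between 0.01 and 0.32.

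The exporters that carry glucuronides out of cells had the highest median of the lists, at 1.60 over 4 genes. *Abcc3* read 1.38 and 1.07 in the control females, -3.30 and -2.89 in the control males, 2.63 and 1.79 in the NEKO females and 1.86 and 1.89 in the NEKO males, which gave a change of 2.98 on the log2 scale (adjusted p = 0.14 from limma, standard error 0.78). *Abcc4* read 2.68 and 2.89 in the control females, 0.68 and 2.36 in the control males, 4.13 and 4.24 in the NEKO females and 5.10 and 5.58 in the NEKO males, which gave a change of 2.61 on the log2 scale (adjusted p = 0.11 from limma, standard error 0.57). The control males were the lowest mice for both exporters, and the groups did not overlap. *Abcc2* changed by 0.59 and *Abcg2* by 0.07, and neither was called.

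**Figure D4:**
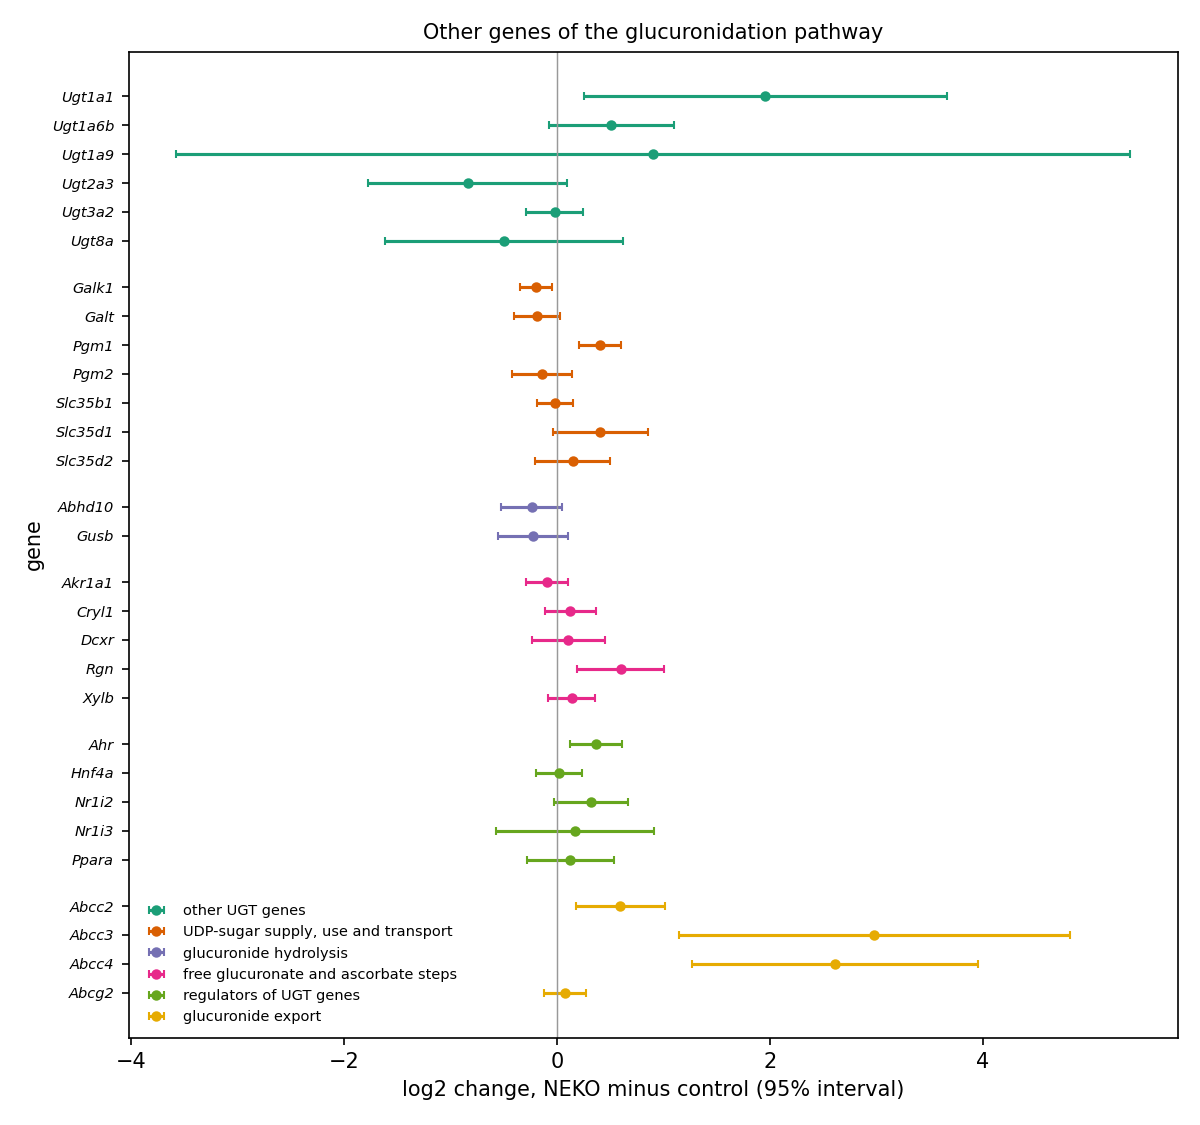
Log2 change from control to NEKO kidneys (x axis; points are limma estimates and bars 95% intervals) for the 29 other pathway genes tested (y axis), coloured by list. *Abcc3* and *Abcc4* lie farthest to the right, at 2.98 and 2.61, and *Ugt1a9*, well above background on 2 of 4 control arrays, has the widest interval.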

How the data were processed

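Kidney RNA of 4 NEKO and 4 control mice was measured on 8 Cy3 arrays, 1 per mouse, with groups and sex taken from the sample labels. The authors deposited Agilent Feature Extraction 10.7.3.1 output, in which the processed signal is an intensity with background subtracted and spatial detrending applied, not normalized between arrays. The deposited matrix holds log2 values: after rounding, 100% lay within 0.01 of the log2 level centred on the median of each probe. Column medians ran from -0.04 to 0.08. The normalization is not given in the sources used here.

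Outlier spots (73 to 172 of 43379 per array) were left out and spots of 1 probe averaged. Probes were kept if at least 4 of 8 arrays had them well above background and at least 6 had a value. Of several kept probes of a gene the brightest was used. RefSeq accessions named 26690 of 41174 probes, giving 13570 named genes and 6023 unnamed transcripts tested. Designs are annotated on mm9, so GRCm38.p6 served for names, gene order and promoters only.

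limma 3.58.1 (R 4.3.3; lmFit, eBayes) was fitted with genotype and sex, with Benjamini-Hochberg adjustment over all 19593 features. An interaction was tested in a second model. The procedure was tested on simulated data. No mouse was left out, and no value of the 9 genes was missing or imputed. The methods name an unequal-variance comparison, run as an alternative, as were normexp background correction of the median spot signal (offset 50), quantile scaling, other filters and probe rules, and leaving out each mouse. The genes described, the pathway list and the tests were chosen with earlier results of these data known. Genes named beyond the 10 are pathway genes whose groups did not overlap, the 5 most alike to *Ugdh*, and markers (those most alike to *Ugt2b35* are not given, since its controls were at background). *Pgm1*, *Slc35d1*, *Rgn*, *Gusb*, *Abcc2*, *Abcg2*, *Ugt1a1*, *Ugt1a6b*, *Ugt1a9*, *Ugt2a3*, *Ugt3a2*, *Krt5*, *Upk1a*, *Slc26a4*, *Slc13a3*, *Slc22a8*, *Slc5a2* and *Hmox1* were chosen after their values were seen.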

Additional observations from a re-analysis of the deposited data

Results flagged for a closer look

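*Ugt2b38* stood out because its change with genotype ran in opposite directions in the sexes: both NEKO females lay above both control females, and both NEKO males lay below both control males. The change in males minus that in females was -2.12 on the log2 scale (standard error 0.90), and the interaction test over all features gave an adjusted p of 0.48 from limma, so the difference did not pass. In 18 groups of 4 mice, 2 for each of the 9 genes, no mouse lay far enough from the rest to be singled out by its gap to the nearest other mouse.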

How the results depend on the processing

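The number of arrays limits what could be detected, and the probe of *Ugt2b35* gives only a bound in controls. Over 22 alternatives, *Ugt2b35* was the 1 gene of the 9 called higher in 17. These alternatives are not independent: the deposited matrix holds the same log2 levels, and the probe rules leave the single probe of *Ugt2b35* unchanged. The count was 2 under normexp background correction (with *Ugdh*), 3 with the effect averaged over the sexes (with *Ugdh* and *Ugt2b34*), 4 under the methods' comparison without adjustment (with *Ugdh*, *Ugp2* and *Ugt2b34*) and 0 with its adjustment. It was 0 when detection on all 8 arrays was required, which leaves *Ugt2b35* untested. It was 1 with each mouse left out in turn. No gene of the 9 was called lower under any of the 22. Pathway genes called higher numbered 2 with the effect averaged over the sexes (*Abcc3* and *Abcc4*) and 3 under the methods' comparison without adjustment (*Abcc4*, *Ahr* and *Rgn*), which also called 1 lower (*Galk1*), and 0 otherwise. The count of genes of the 9 whose change differed between the sexes was 0 under all 18 alternatives. Signs turned for *Ugt2b36* (0.05 without control replicate 4, 0.21 without NEKO replicate 6), *Ugt2b37* (0.08 without NEKO replicate 6) and *Ugt2b38* (0.000285 without NEKO replicate 6). With each mouse left out in turn their log2 changes ran from -0.63 to 0.21 for *Ugt2b36*, from -0.75 to 0.080 for *Ugt2b37* and from -0.86 to 0.000285 for *Ugt2b38*. The difference between *Ugdh* and *Ugp2* was 0.97 to 1.27 under 12 alternatives chosen after seeing the data. The change of *Ugt1a1* was 0.95 to 2.35 over 21 alternatives. Except where stated, the causes were not tested. The slide is the same split as sex and was not run apart. No paired analysis was possible because no replicate number is shared by the groups.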
